A study of Nicotiana tabacum with 9 samples.

Results

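The AmMIXTA binding set holds the tobacco DNA regions that AmMIXTA pulled down in DNA affinity purification sequencing (DAP-seq), set against a GFP control, and the genes tied to them. Its members were chosen on the authors' own peak shape score. They are the 20512 peaks with a score above 2 among the 29189 listed on nuclear sequences (70.3%), and the 1195 genes listed with a score above 2 among the 1662 in the authors' deposited gene table (71.9%). That table rounds scores to 2 decimals, so 1 gene at the criterion, LOC107822251, fell outside although its peak is among the 20512. The 2 lists of the series together hold 50154 peaks, and their gene tables hold 1884 genes. The score was used to select the members, so every score below is a description and no test was made on it, and nothing is read from these 2 percentages.

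The AmMIXTA group had 3 replicates of HALO-tagged AmMIXTA, and the GFP group had 3 replicates of HALO-tagged nuclear GFP, the negative control. A HALO tag is a protein handle that fixes a factor to beads. All of these samples used naked genomic DNA from leaf primordia of wild-type Nicotiana tabacum, cultivar Petit Havana SR1, and protein made in wheat germ extract. The assay thus had no chromatin, no living cell and no tobacco partner protein, and the DNA of each replicate met 1 separate expression of the protein. A second protein, NtZFP8, was tested against the same GFP samples, for a total of 9 samples in the series. The DNA came from 3 independent plants. The peaks were deposited as 1 list for the 3 AmMIXTA replicates, so the spread between replicates cannot be seen, and the read depth is unknown.

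AmMIXTA is a MYB transcription factor of Antirrhinum majus (snapdragon) that makes petal epidermal cells grow into cones. MYB proteins of the R2R3 type read short DNA motifs through paired helical repeats, and relatives of MIXTA in other plants act in trichome outgrowth and in building the cuticle. A glandular trichome is an epidermal hair with a secreting head, and tobacco makes diterpenes and sugar esters in such hairs. The series addressed the genes bound by AmMIXTA and NtZFP8 when these trichomes begin to form.

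Most peaks were modest in score. Over the 20512 nuclear peaks the median score was 3.00 (interquartile range 2.37 to 4.40), and the highest was 27.4, at 131848 to 132257 of NW_015929757.1. Scores above 2 and up to 3 made up 50.1% of the peaks, those up to 5 a further 30.3% and those up to 10 a further 15.2%. A score above 20 was reached by 56 peaks. The authors' p-value is a one-sided normal tail of the score, so it adds no second measure: the criterion of 2 equals a p of 0.0228 per peak, with no adjustment for the number of peaks.

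**Figure D1:**
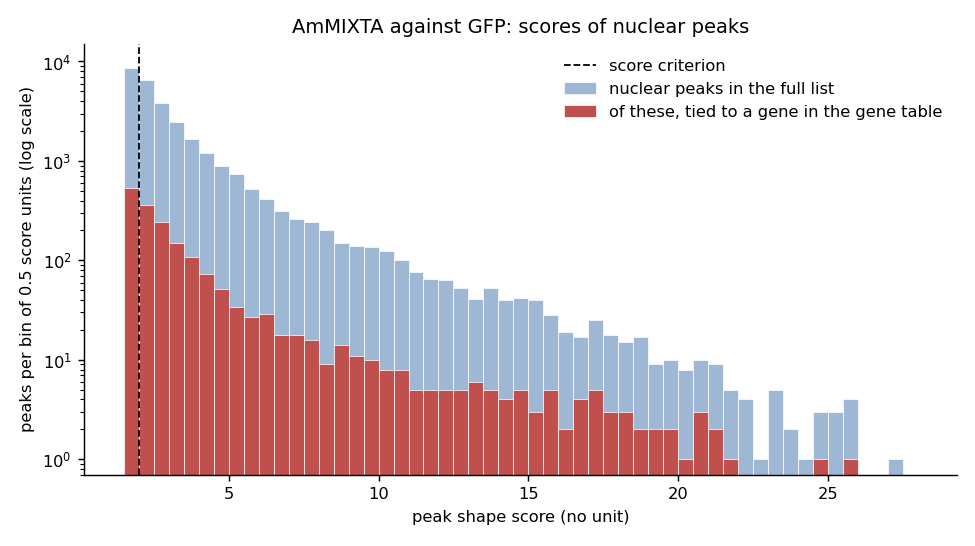
Histogram of peak shape scores (no unit) of the 29189 AmMIXTA peaks listed on nuclear sequences, with the number of peaks per bin of 0.5 score units on a log scale. Blue bars are peaks in the full list, red bars are those tied to a gene in the gene table, and the dashed line is the criterion of 2. Of the peaks above 2, 50.1% lie at or below 3 and 56 lie above 20.

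The peaks had a narrow range of widths. The median width was 385 bp (interquartile range 331 to 440, full range 68 to 524). Across the 20512 peaks, which were all selected on the score, width and score had a Pearson r of 0.03 and a Spearman rho of -0.02, where neighbouring peaks share libraries and are not independent. For 1646 peaks (8.02%) the region began before the first base of its sequence, and 230 (1.12%) were written as wrapped around its end.

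Peaks were spread over many sequences, with close neighbours on some of them. They lay on 15240 sequences, of which 81.2% carried 1 peak, while 48 carried 10 or more and NW_015822300.1 carried 22. Centres of neighbouring peaks on 1 sequence were a median of 1416.5 bp apart (interquartile range 765 to 4193), and 1894 of the 5272 neighbouring pairs (35.9%) were within 1000 bp. The sequences of this assembly are scaffolds of very unequal length, so these counts depend on how the genome was assembled.

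Only a small part of the binding set could be read by gene. The gene table tied 1271 of the nuclear peaks (6.20%) to a gene, at a median score of 3.09, against 2.99 for the peaks it left out, and at a median width of 403 bp, against 383 bp. The share tied to a gene was between 5.89% and 6.19% in the bands up to 10, 10.1% for scores above 10 and up to 20, and 16.1% above 20. Of the 10 highest peaks, 2 were in the gene table. Not given in the sources used here are the rule by which the authors tied peaks to genes and the place of a peak within or beside its gene.

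The genes past the criterion covered a wide span of functions. Of the 1195, 883 (73.9%) had a description and 312 (26.1%) were listed as uncharacterized. Words in the descriptions placed 818 genes in 31 function classes, from 2 to 83 genes in size. The highest score per gene had a median of 3.06 over all 1195 genes (interquartile range 2.42 to 4.55). Of these genes, 616 (51.5%) were above 3, 260 (21.8%) above 5 and 92 (7.70%) above 10. The counts given for each class below are to be read beside these shares. Class medians ran from 2.53 to 3.83. A gene above 3 was present in 30 of the 31 classes, a gene above 5 in 28 and a gene above 10 in 23.

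The largest class was ubiquitin and proteolysis, with 83 genes. Primary metabolism and membrane transport had 68 each, RNA processing with the pentatricopeptide repeat proteins had 67, and protein kinases, receptors and phosphatases had 53. The primary metabolism class took enzymes by general words such as transferase or ligase, so it also holds enzymes of protein glycosylation and membrane anchors. The transport class also holds nuclear and organelle import proteins. Among listed genes under the criterion, the word rules put DNA ligase 4-like in primary metabolism and a biotin carboxyl carrier protein in membrane transport. These are large classes of many plant genomes, and no genome-wide count of each class was used here, so the order of sizes is a description of the table and not an enrichment. Classes close to trichome formation were small: 4 epidermis and trichome factors, 8 MYB genes, 21 cuticle, wax and lipid genes, 8 lipid transfer genes and 5 terpenoid and carotenoid genes. Such counts depend on the word rules, which put (-)-alpha-terpineol synthase-like and O-acyltransferase WSD1-like, both under the criterion, in primary metabolism.

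**Figure D2:**
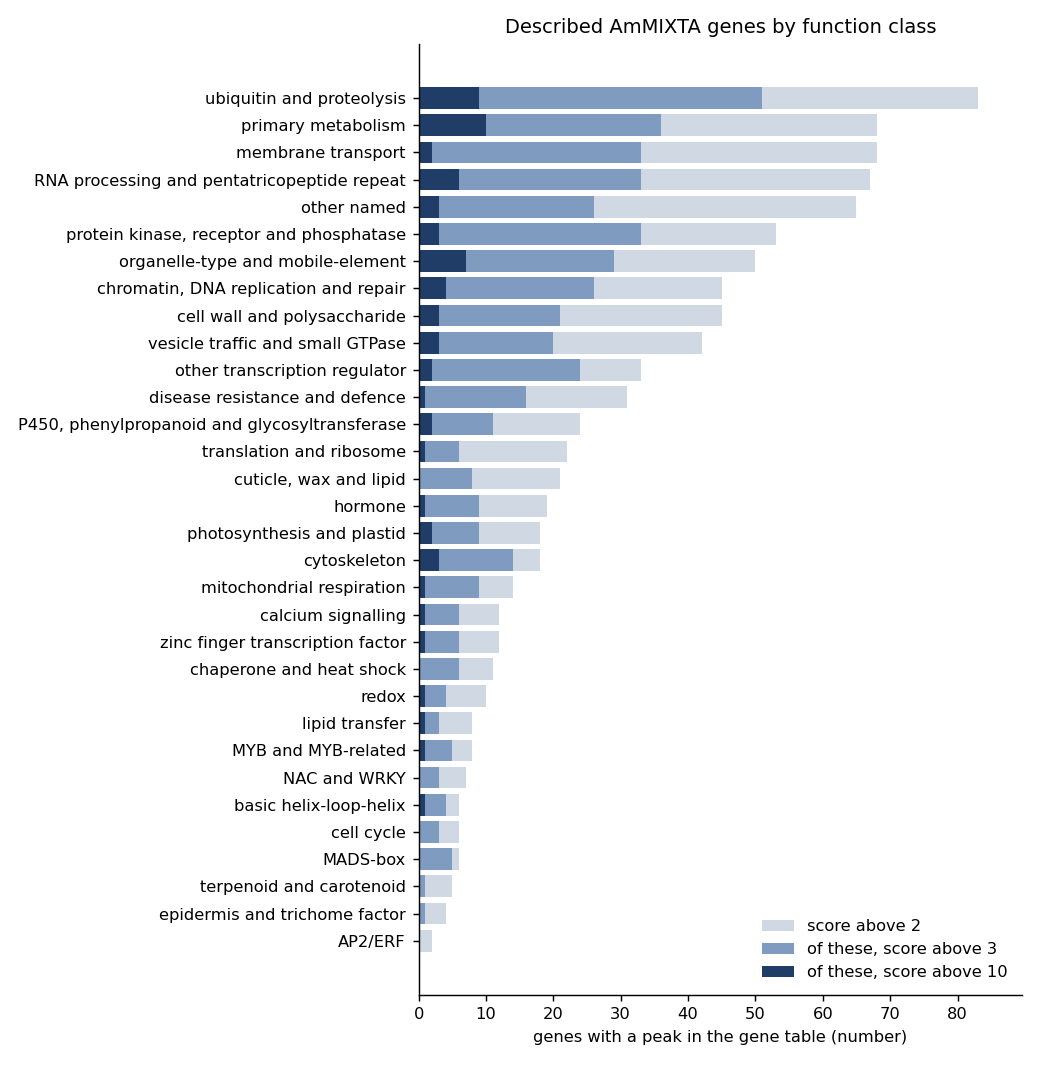
Number of described AmMIXTA genes in each function class, with 65 genes in no class under "other named". The full bar counts genes with a score above 2, the middle shade those above 3 and the dark part those above 10; ubiquitin and proteolysis leads with 83 genes and AP2/ERF has 2.

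The 5 genes with the highest scores each belonged to basic functions of the cell. RABB1c-like (LOC107813663), a small GTPase of vesicle traffic, had the highest score of all genes (25.9) from a peak at 103928 to 104319 of NW_015806601.1. The DnaJ protein GRV2-like (LOC107782199), which acts in endosomes in Arabidopsis, followed with 24.7. The chloroplast protein ylmG homolog 1-2 (LOC107774705) had 21.8, the proteasome ATPase 26S protease regulatory subunit 6A (LOC107803920) had 21.3, and the calcium sensor calcineurin B-like protein 3 (LOC107819027) had 21.2. The first 2 belong to vesicle traffic, and each of the other 3 had the highest score of its own class.

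Among regulators of the epidermis, 1 of 4 genes had a score above 3. GLABRA 2-like (LOC107819990) had 9.19, from a single peak at 46962 to 47351 of NW_015823889.1. In Arabidopsis, GLABRA 2 is a homeodomain-leucine zipper factor of trichome outgrowth and root hair patterning. The other 3 were close to the criterion, with scores of 2.78 at WIN1-like (LOC107788794), 2.49 at EPIDERMAL PATTERNING FACTOR-like protein 6 (LOC107815693) and 2.31 at protodermal factor 1-like (LOC107795275). In Arabidopsis, WIN1 switches on wax and cutin genes, the patterning factors are secreted peptides of the family that spaces stomata, and protodermal factor 1 marks the outermost cell layer. The median of the 4 genes was 2.64, beside 3.06 for all 1195 genes.

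MYB genes, the family of AmMIXTA itself, numbered 8, with a median score of 3.43 and 5 above 3. Transcription repressor MYB6-like (LOC107803458) stood apart with 18.1, at 36809 to 37219 of NW_015937367.1, while a second gene of the same name (LOC107793397) had 2.94. LHY-like (LOC107775222), a clock gene in Arabidopsis, had 4.21. The 2 genes named RAX3-like, after an Arabidopsis regulator of axillary buds, had 4.2 (LOC107789774) and 3.84 (LOC107779404), and the second of them was the single MYB gene with more than 1 peak. MYB3-like (LOC107759231) had 3.02 and MYB48-like (LOC107778763) had 2.02. Myb-related protein 308-like (LOC107812106) had 2.98, and its namesake in snapdragon restrains phenolic metabolism. No listed gene carried MIXTA in its description.

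The 41 genes of the MYB, basic helix-loop-helix, NAC, WRKY, MADS-box, AP2/ERF and zinc finger families had a median of 3.06, the same as all 1195 genes, with 23 above 3 and 7 above 5. These classes were set by words in the descriptions. The zinc finger class also took CCCH proteins, and whether each member is a transcription factor was not checked. The highest of the 41 was JACKDAW-like (LOC107786831), from a C2H2 zinc finger family that patterns the Arabidopsis root, with 20.8 at 33950 to 34344 of NW_015913826.1. CONSTANS-LIKE 10-like (LOC107816562), of a zinc finger family named for a flowering-time gene, had 6.55, and the CCCH zinc finger protein 65-like (LOC107805435) had 4.85. Squamosa promoter-binding-like protein 12 (LOC107822648), of a family that times developmental phases, had 3.76. The other 8 zinc finger genes lay between 2.01 and 3.57.

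In the basic helix-loop-helix family, 2 of 6 genes stood far above the rest. The gene bHLH101-like (LOC107828347), an iron-deficiency regulator in Arabidopsis, had 11.5, and bHLH10-like (LOC107791312), an anther gene in Arabidopsis, had 9.28. The next, bHLH30-like (LOC107832488) and bHLH112-like (LOC107831217), had 3.21 and 3.05. MADS-box genes, best known from flower development, had the highest median of the transcription factor families (3.75, 6 genes). AGL42-like (LOC107763429) had 7.90, AGL66 (LOC107765071), a pollen gene in Arabidopsis, had 5.29, AGL29 (LOC107804566) had 3.88 and MADS-box transcription factor 23-like (LOC107797082) had 3.61. Except for AGL11 (LOC107831152, 2.18), named after its value was seen, each of the 6 was above 3. Another MADS-box transcription factor 23-like gene (LOC107785927) was under the criterion at 1.7.

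NAC and WRKY genes were lower, with 3 of 7 above 3 and none above 5. NAC76-like (LOC107831613), whose Arabidopsis namesake belongs to the switches of xylem vessel formation, had 4.48. The 2 genes named WRKY4 had 3.18 (LOC107784946) and 3.06 (LOC107820331), and the defence regulator WRKY33 (LOC107811911) had 2.89. The AP2/ERF class held ERF113-like (LOC107783671) with 2.94 with a second member, dehydration-responsive element-binding protein 3-like (LOC107791342), at 2.12, and was the one class without a gene above 3. It held 3 genes when a gene was counted in every class it matched.

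**Figure D3:**
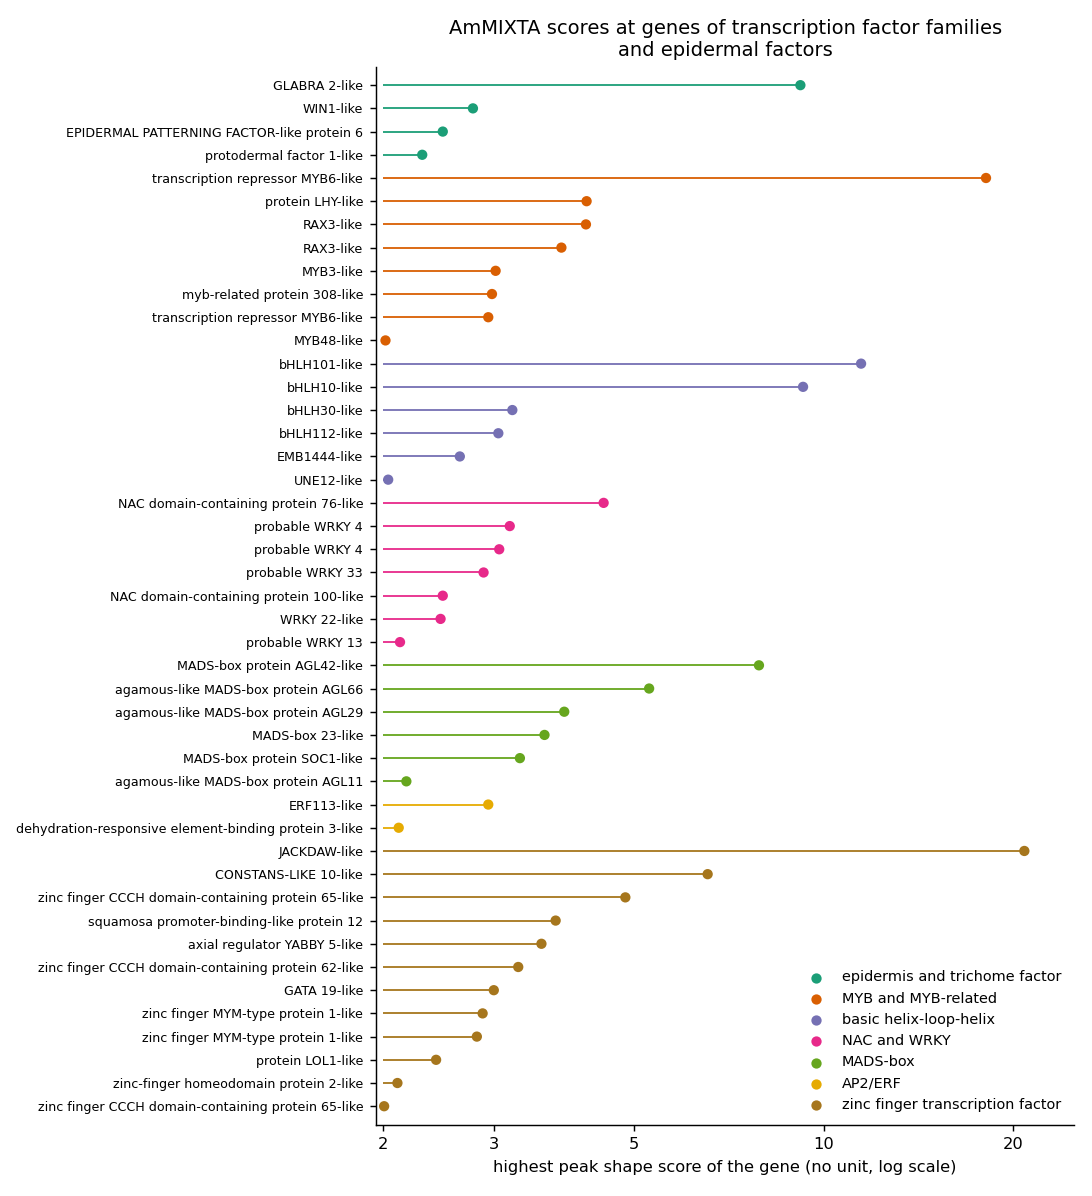
Highest AmMIXTA peak shape score (no unit, log scale) of each gene in 6 transcription factor classes, set by words in the descriptions, and of the 4 epidermal factors, 1 line per gene, coloured by class. JACKDAW-like (20.8), MYB6-like (18.1), bHLH101-like (11.5), bHLH10-like (9.28) and GLABRA 2-like (9.19) stand out, and most others lie between 2 and 5.

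A further 33 genes belonged to the wider transcription machinery, with a median of 3.43 and 24 above 3. ALWAYS EARLY 3-like (LOC107784961), a relative of the fly gene regulator of that name, had 19.3 at 69409 to 69778 of NW_015911627.1. Another gene of that name (LOC107808192) was under the criterion at 1.71. Calmodulin-binding transcription activator 4-like (LOC107810996) had 13.0, against 2.57 at a second gene of that name (LOC107761409). The B3 domain protein At4g34400-like (LOC107776731) had 6.16 and transcription-associated protein 1 (LOC107801589), a co-activator subunit in yeast, had 5.65. The 4 genes for Mediator, the complex that bridges factors and RNA polymerase II, lay between 3.43 and 4.12. The 6 genes for subunits of DNA-directed RNA polymerases lay between 2.09 and 5.41.

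Genes of the cuticle, waxes and lipids were mostly near the criterion. The 21 genes had a median of 2.69, with 8 above 3 and 1 above 5. That one, elongation of fatty acids protein 3-like (LOC107826684), which acts in making long fatty acyl chains, had 6.76 at 22651 to 23014 of NW_015845025.1. Phosphatidylserine decarboxylase proenzyme 2-like (LOC107786650), of phospholipid synthesis, had 4.83, a putative lipase (LOC107799317) had 4.74 and acyl-CoA--sterol O-acyltransferase 1-like (LOC107822145), which makes sterol esters, had 4.31. Among genes described as peroxisomal were the fatty acid activating long chain acyl-CoA synthetase 6 (LOC107780683) with 4.19, the beta-oxidation protein AIM1-like (LOC107797268) with 4.13 and acyl-activating enzyme 1 (LOC107814727) with 3.06. The peaks of the sterol O-acyltransferase gene and of acyl-activating enzyme 1 were each also tied to another gene (LOC107822146 and LOC107814728). The highest GDSL lipase, At5g37690-like (LOC107817898), had 3.45, and the 3 GDSL lipases of the set had a median of 2.82.

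Among enzymes of this class named after their values were seen, ECERIFERUM 1-like (LOC107759567), of wax alkane formation in Arabidopsis, had 2.30, and fatty acyl-CoA reductase 2-like (LOC107765773) had 2.25. Among the 8 lipid transfer genes, which encode small secreted proteins that carry lipids or share their fold, the median was 2.58. YLS3-like (LOC107777080) had 16.3, LOC107812329, a non-specific lipid-transfer protein 1, had 6.45, and the proline-rich protein DC2.15-like (LOC107800979) had 4.35. The remaining 5 lay between 2.12 and 2.64, led by non-specific lipid-transfer protein 1-like (LOC107823858).

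Terpenoid and carotenoid genes formed a small class with a narrow range, 2.52 to 3.53 over 5 genes. LUTEIN DEFICIENT 5 (LOC107775451), a carotenoid hydroxylase in Arabidopsis, had 3.53. The 2 carotenoid cleavage dioxygenases 1-like had 2.96 (LOC107817468) and 2.57 (LOC107817154), the monoterpene gene camphene/tricyclene synthase (LOC107785943) had 2.71, and ent-kaurene oxidase (LOC107792085), of gibberellin synthesis, had 2.52. The 2 listed 5-epi-aristolochene synthases, sesquiterpene enzymes of tobacco defence named after their values were seen, were under the criterion at 1.93 (LOC107769201) and 1.69 (LOC107799408).

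Other specialised metabolism formed a larger class with a higher top score, but its median was near the 2.71 of the terpenoid and carotenoid class. The class of cytochromes P450, phenylpropanoid enzymes and glycosyltransferases had 24 genes, a median of 2.87 and 11 above 3. UDP-glycosyltransferase 71K1-like (LOC107796811) had 17.3 and isoleucine N-monooxygenase 1-like (LOC107809681) had 16.5, from a region that begins at base 1 of its sequence. Anthocyanidin reductase-like (LOC107792951), of flavan-3-ol synthesis, had 5.62 and 7-methylxanthosine synthase 1-like (LOC107798856) had 5.35. Further genes of phenylpropanoid and lignin synthesis, named after their values were seen, had 4.96 at cinnamoyl-CoA reductase 1-like (LOC107808266), 4.22 at phenylalanine ammonia-lyase-like (LOC107802063) and 2.10 at trans-cinnamate 4-monooxygenase (LOC107826530). The 5 genes with the words cytochrome P450 in their description did not exceed 2.94. Enzymes of that family listed under other names are not counted among these 5.

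Cell wall genes numbered 45, with a median of 2.88, 21 above 3 and 9 above 5. A glucan endo-1,3-beta-glucosidase (LOC107793272), of an enzyme group that cuts callose, had 14.7 at 34961 to 35314 of NW_015922253.1. Beta-galactosidase 9-like (LOC107766584) had 14.6, polygalacturonase-like (LOC107779415), a pectin-cutting enzyme, had 10.3, and arabinosyltransferase ARAD1 (LOC107770982), of pectic arabinan synthesis in Arabidopsis, had 8.97. Another beta-galactosidase 9-like gene (LOC107781818) was under the criterion at 1.73. Trichome birefringence-like genes, whose family adds acetyl groups to wall polysaccharides, had 4 members in the set, from 3.02 to 7.88. Extensins, structural wall glycoproteins, had 7, from 2.25 to 4.86. The 4 genes for pectin esterases and acetylesterases lay between 2.35 and 2.79, none above 3.

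The cytoskeleton class had the highest median of the 31 (3.83), with 14 of its 18 genes above 3 (77.8%, beside 51.5% of all 1195 genes). The classes differ widely in size, so this rank is a description and nothing is read from it. Tubulin-folding cofactor D-like (LOC107787597), needed to assemble tubulin dimers, had 17.4 at 25241 to 25591 of NW_015914713.1. Kinesin-13A-like (LOC107815762), whose loss alters trichome branching in Arabidopsis, had 16.1, but its peak is also tied to an uncharacterized gene. The microtubule-severing type proteins spastin-like (LOC107766094) and fidgetin-like protein 1 (LOC107815741) had 12.3 and 8.77. Cell cycle genes were fewer: 6, with a median of 3.17. The spindle checkpoint gene BUBR1-like (LOC107799694) had 7.84, the anaphase activator CDC20.2 (LOC107779511) had 4.19, the mitotic cyclin C13-1-like (LOC107812029) had 3.70 and cyclin-D7-1 (LOC107800608) had 2.63.

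Chromatin, replication and repair genes numbered 45, with a median of 3.22 and 26 above 3. LOC107807453, the large subunit of replication protein A, which coats single-stranded DNA, had 17.6, and a second gene of that name (LOC107831305) had 5.16. The mitochondrial repair protein recA homolog 2 (LOC107784664) had 13.4, the chromatin remodeller SYD-like (LOC107777060) had 12.4 with a second peak of 8.02, and Werner Syndrome-like exonuclease (LOC107784650) had 10.6. Histone-lysine N-methyltransferases, which mark histone tails, had 10 genes in the set, between 2.27 and 5.06.

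**Figure D4:**
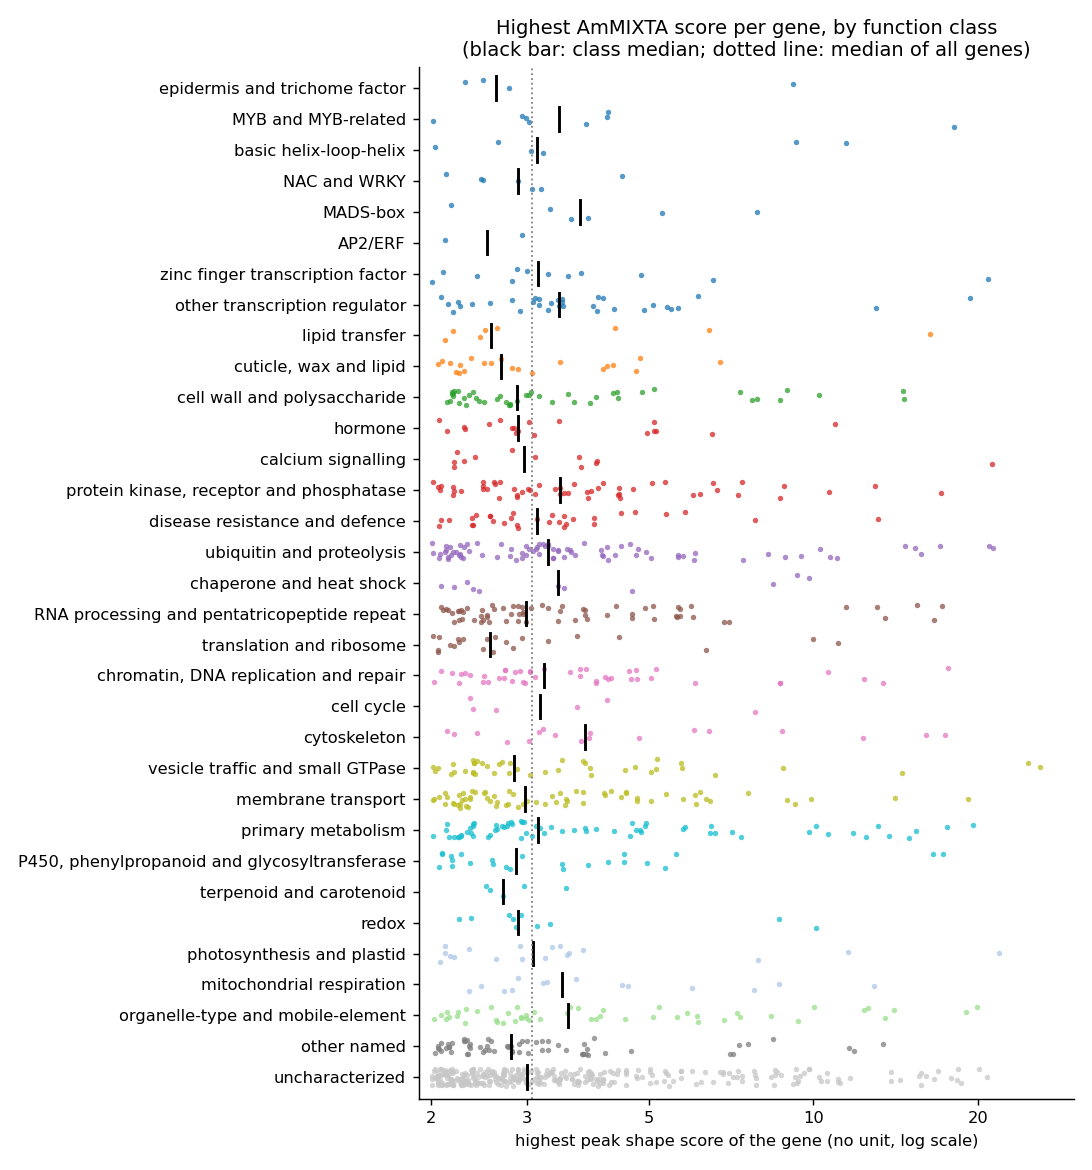
Highest peak shape score (no unit, log scale) of each of the 1195 genes, 1 point per gene, by function class and coloured by wider theme, with points spread vertically for sight only. Black bars are class medians and the dotted line is the median of all genes (3.06); class medians run from 2.53 to 3.83 while single genes in most classes reach above 10.

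Kinases, receptors and phosphatases numbered 53, with a median of 3.45 and 33 above 3. The kinase EDR1-like (LOC107799674), a restraint on defence in Arabidopsis, had 17.1 at 24850 to 25177 of NW_015931502.1. A leucine-rich repeat receptor-like kinase (LOC107760558) had 13.0, nuclear inhibitor of protein phosphatase 1-like (LOC107814041) had 10.7 and a protein with kinase and PP2C-like domains (LOC107825832) had 8.83. The 5 genes named protein phosphatase 2C lay between 2.27 and 7.27, and the 14 receptor kinases between 2.20 and 13.0.

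Calcium signalling was led by calcineurin B-like protein 3 at 21.2, far from its other 11 genes. Those lay between 2.21 and 4.02, the next being the vacuolar cation channel gene TPC1A (LOC107770546, 4.02), cyclic nucleotide-gated channel 15 (LOC107804276, 4.01) and a mitochondrial calcium uniporter (LOC107791397, 3.76). Defence genes numbered 31 with a median of 3.13. The late blight resistance homolog R1B-16 (LOC107769346) had 13.1, TMV resistance protein N-like (LOC107791816) had 7.81 among 3 peaks, RPP13-like protein 1 (LOC107759949) had 5.83 and hypersensitive-induced response protein 1-like (LOC107776865) had 5.37. The 17 genes named for late blight, virus or other disease resistance lay between 2.07 and 13.1. Further R1B-16 homologs, LOC107791398 and LOC107805296, were under the criterion at 1.8 and 1.78.

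Hormone genes numbered 19, with a median of 2.89, 9 above 3 and 5 above 5. Tryptophan aminotransferase-related protein 2-like (LOC107767293), of auxin synthesis, had 11.0 at 23347 to 23693 of NW_015887378.1. Gibberellin 2-beta-dioxygenase 2-like (LOC107770071), which inactivates gibberellins, had 6.52 and cytokinin dehydrogenase 3-like (LOC107799019), which breaks down cytokinins, had 5.16. The neighbouring salicylic acid-binding protein 2-like genes LOC107822429 and LOC107822430 shared 1 peak of 5.12. Jasmonate genes, named after their values were seen, had 3.43 at jasmonate O-methyltransferase (LOC107813811), 3.02 at the repressor TIFY 6B-like (LOC107807057) among 3 peaks, and 2.68 at the receptor gene coronatine-insensitive protein 1-like (LOC107819687).

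Ubiquitin and proteolysis, the largest class, had a median of 3.27, with 51 of 83 genes above 3 and 9 above 10. Behind the 26S protease subunit came the F-box protein SKIP11-like (LOC107815441), of the type that picks targets for ubiquitin ligases, with 21.0 at 27301 to 27587 of NW_015811032.1. Xylem cysteine proteinase 1-like (LOC107804325), which digests the contents of dying vessel cells in Arabidopsis, had 17.0, and the chloroplast membrane protease rhomboid-like protein 11 (LOC107828226) had 15.7. The 16 F-box genes lay between 2.08 and 21.0, the 10 genes named E3 ubiquitin ligase between 2.26 and 6.05, and the 4 rhomboid genes between 4.46 and 15.7. Chaperones numbered 11 with a median of 3.42. DnaJ homolog C28-like (LOC107812521) had 9.80, heat shock cognate 70 kDa protein 2-like (LOC107779564) had 9.35, a small heat shock protein (LOC107789776) had 8.44 and DJ-1 homolog D-like (LOC107783336) had 4.67. The peaks of the heat shock cognate gene and of DJ-1 homolog D-like were each also tied to another gene (LOC107779565 and LOC107783337).

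RNA processing genes had a median of 2.99, with 33 of 67 above 3 and 6 above 10. La-related protein 1A-like (LOC107770309), which binds mRNA, had 3 peaks of 17.22, 12.71 and 10.05. The pentatricopeptide repeat protein At2g21090-like (LOC107814362), of a family that edits and processes organelle RNA, had 2 peaks of 16.6 and 15.7. LOC107799652, with G patch and ankyrin repeats, had 15.4 and the KH domain protein At3g08620-like (LOC107805160) had 13.5. The 14 pentatricopeptide repeat genes lay between 2.09 and 16.6. Translation genes were lower, with a median of 2.57 and 6 of 22 above 3. Elongation factor 1-delta 1-like (LOC107812526) had 11.1 from a peak tied to 3 genes, the chloroplast ribosomal protein L6-like (LOC107803875) had 9.99, initiation factor 4A-I-like (LOC107819858) had 6.37 and the ribosome assembly factor REI1 homolog (LOC107785020) had 4.42.

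Vesicle traffic genes had the 2 highest gene scores of the set but a median of 2.84 over 42 genes. After RABB1c-like and GRV2-like came SEC8-like (LOC107791768), of the exocyst that tethers secretory vesicles, with 14.5, and vacuolar protein sorting 51 homolog (LOC107821090) with 8.80. Membrane transport genes had a median of 2.98, with 33 of 68 above 3. A pair of purine permease 3-like genes had 19.2 (LOC107788140) and 9.26 (LOC107804577), the ABC transporter G23-like (LOC107771139) had 14.1 and boron transporter 1-like (LOC107761935) had 9.90. The 6 potassium transport genes lay between 2.14 and 5.38, and the 5 ABC transporters between 2.24 and 14.1.

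Primary metabolism had 10 of its 68 genes above 10, with a median of 3.14. Over all 1195 genes, 92 (7.70%) were above 10. By count this was the most of any named class, but the class is among the largest. Smaller classes had 3 of 18 (cytoskeleton) and 7 of 50 (organelle-type and mobile-element). A trehalose-phosphate synthase (LOC107799906), of sugar signalling, had 19.6 at 147478 to 147851 of NW_015931872.1, and methylenetetrahydrofolate reductase (LOC107832493), of one-carbon metabolism, had 17.6. The nudix hydrolase 16 (LOC107813941) had 15.4 and aldehyde dehydrogenase B7 (LOC107794974) had 14.96. Redox genes numbered 10 with a median of 2.89. Methionine sulfoxide reductase B1 (LOC107775816), which repairs oxidised proteins, had 10.1 from a peak shared with ribokinase-like, peroxiredoxin-2B-like (LOC107830577) had 8.66, cytochrome b561 with a DOMON domain (LOC107803293) had 3.30 and a respiratory burst oxidase homolog (LOC107814882) had 3.13.

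Nuclear genes for chloroplast function numbered 18, with a median of 3.08. After ylmG homolog 1-2 came Rubisco activase 2 (LOC107798594), which keeps the carbon-fixing enzyme active, with 11.6, glutamate-1-semialdehyde aminomutase (LOC107826543), of tetrapyrrole synthesis, with 7.92, and red chlorophyll catabolite reductase (LOC107810967) with 3.80. The 14 mitochondrial genes had a median of 3.47. Cytochrome b-c1 subunit 7-2-like (LOC107816074), of the respiratory chain, had 3 peaks of 12.9, 12.4 and 9.79. A subunit of complex I (LOC107797041) had 8.64, a complex I assembly factor (LOC107819417) had 7.78 and stomatin-like protein 2 (LOC107818553) had 6.01.

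Genes with organelle-type or mobile-element names, found on nuclear sequences, had a median of 3.57 over 50 genes, with 18 above 5. Craniofacial development protein 2-like (LOC107781153) had 19.9, Rubisco large chain-like (LOC107793518) had 18.97, Ycf2-like (LOC107770945) had 14.04 and ATP synthase epsilon chain-like (LOC107816505) had 13.5. The last 3 carry names of genes that plant plastid genomes encode. Reads of such copies, and of close gene copies in general, may be split between copies by mapping, and this was not tested. Another Rubisco large chain-like gene (LOC107816460) was under the criterion at 1.84.

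The 312 uncharacterized genes were close to the described ones in score, with medians of 3.00 and 3.08. Scores above 10 were reached by 23 of them (7.37%), against 69 described genes (7.81%). The highest uncharacterized genes, named after their values were seen, were LOC107782682 (20.7) and LOC107807736 (20.1). Of the 65 described genes in no class, At2g34160-like (LOC107818027) had 13.4, membralin-like (LOC107789575) 11.9, At1g27050 (LOC107821269) 11.6 and UPF0496 protein At1g20180-like (LOC107765842) 8.45.

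In the RefSeq table of another tobacco assembly, 938 of the 1195 genes (78.5%) had a matching identifier. Of the matched genes, 904 (96.4%) were protein-coding, 17 pseudogenes, 11 long non-coding RNAs and 6 other RNAs. Among all RefSeq genes there, 76.1% were protein-coding. That share also counts tRNA, rRNA and small RNA genes. Only genes that the authors had tied to a peak could match, so nothing is read from the difference. Isoleucine N-monooxygenase 1-like, elongation factor 1-delta 1-like, AIM1-like and camphene/tricyclene synthase were among those listed as pseudogenes.

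Most genes had a single peak, and 82 (6.86%) had several. The centres of several peaks of 1 gene spanned a median of 1376.5 bp, with a range of 358 to 35132 bp. The highest score had a median of 4.23 at these genes, against 2.99 at genes with 1 peak, where the highest of several values is larger by construction. An uncharacterized gene, LOC107778168, had the most, 8 peaks over 8215 bp, with scores from 2.11 to 7.85. The uncharacterized LOC107787902 had 6 peaks from 4.29 to 13.9, and cytochrome b6 (LOC107769160), of a kind that plastid genomes encode, had 6 from 3.10 to 12.6.

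Named nuclear genes among the 10 with the most peaks were few. Trichome birefringence-like 39 (LOC107797195) had 5 peaks of 7.88, 2.69, 5.06, 3.74 and 5.84 in the order of their positions, over 2344 bp. The G-type lectin receptor kinase SD2-5 (LOC107817277), of a family of plant surface receptors, had 4 peaks of 3.57, 4.73, 6.45 and 6.66 over 1944 bp. Photosystem II D2-like (LOC107808202), another name from plastid genomes, had 4 peaks from 5.58 to 12.4. The uncharacterized LOC107792561 and LOC107806606 had 5 peaks each, with highest scores of 9.17 and 3.14, and LOC107804933 and LOC107776757 had 4 each, with 3.92 and 3.44. Of these 10 genes, LOC107778168, LOC107787902, LOC107792561, LOC107806606, cytochrome b6 and photosystem II D2-like had no matching identifier in the RefSeq table. Over all 1195 genes, 257 had none.

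**Figure D5:**
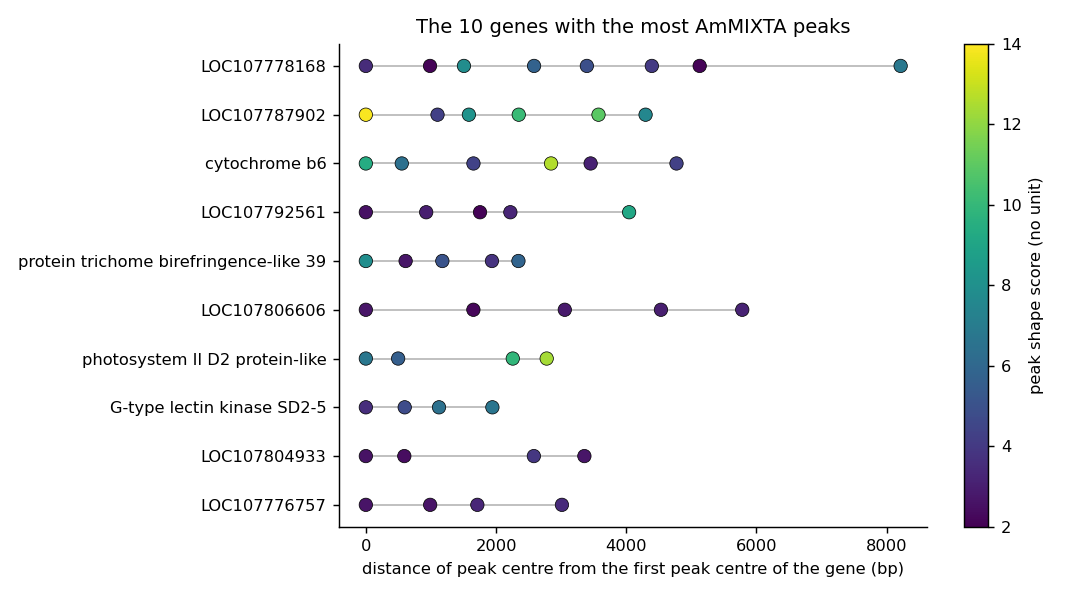
Positions and scores of AmMIXTA peaks at the 10 genes with the most peaks, with the distance of each peak centre from the first one in bp on the horizontal axis and the peak shape score (no unit) as colour. LOC107778168 has 8 peaks over 8215 bp and trichome birefringence-like 39 has 5 over 2344 bp.

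Tobacco is an allotetraploid, so many genes have a near copy from the other parent. A description was carried by more than 1 gene past the criterion in 68 cases, which took in 158 genes. Of the 59 descriptions with 2 genes, 55 had them on separate sequences. The higher score of such a pair was a median of 1.29 times the lower, within 1.5 times in 32 pairs and more than 3 times in 10. Both genes of a pair had to pass the criterion, which leaves out many unlike pairs by construction. For example, ALWAYS EARLY 3-like had 19.3, while another gene of that name (LOC107808192) was under the criterion at 1.71. The pairs in which both genes passed held both like and unlike values. The kinases STY46-like had 7.42 (LOC107832665) and 6.02 (LOC107790852), while the 26S protease subunits had 21.3 and 3.35 (LOC107800555). These examples were chosen after their values were seen, and which pairs are copies from the 2 parents was not tested.

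Some peaks were tied to more than 1 gene. There were 54 such peaks with 106 genes, so the gene behind those scores cannot be told apart. Peaks of this kind included those at kinesin-13A-like (16.1), at elongation factor 1-delta 1-like (11.1) and at MCM10 homolog with beta-galactosidase 13-like (8.69), named after their values were seen.

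The genes nearest the criterion included described and uncharacterized ones on both sides of it. Just inside it were an OTU domain protein (LOC107783287) and the uncharacterized LOC107786795 and LOC107796812, each at 2.01. Just outside were tRNA-specific adenosine deaminase 2-like (LOC107822251), receptor kinase At2g26730 (LOC107811471) and the uncharacterized LOC107787197, each listed at 2.00 in the gene table. In the full peak list, LOC107822251 had 2.00013 and was outside only through the rounding of the gene table. In all, 467 genes of the table did not pass.

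NtZFP8 scores, which come from the same GFP controls, are given beside those of AmMIXTA for a few genes without a comparison. RABB1c-like had 25.9 for AmMIXTA and 20.6 for NtZFP8. Tubulin-folding cofactor D-like had 17.4 for AmMIXTA and 11.0 for NtZFP8, spastin-like had 12.3 for AmMIXTA and 15.05 for NtZFP8, and fidgetin-like protein 1 had 8.77 for AmMIXTA and 2.14 for NtZFP8. These are genes of vesicle traffic and of microtubules. Tryptophan aminotransferase-related protein 2-like had 11.0 for AmMIXTA and 7.44 for NtZFP8. No NtZFP8 score was listed for AGL42-like or bHLH10-like, which were named with these values known. The highest uncharacterized genes, LOC107782682 and LOC107807736, had 16.1 and 14.1 for NtZFP8. Each of the 10 genes with the most AmMIXTA peaks also had an NtZFP8 score. How many of all genes lacked one is not given here, so a missing score is not read as typical.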

How the data were processed

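DAP-seq was carried out on 3 AmMIXTA and 3 GFP samples. Per the series' design text, the authors mapped reads to the tobacco assembly of Sierro et al. and, against GFP, took hits whose score exceeded 2 with p under 0.05. Not given in the sources used here are the aligner, the caller and the handling of replicates. The deposited peak shape score, which carries no unit, was used as it stood, and the deposited p-value equals its normal tail to within 4.37e-16. Peaks and coordinates were used as deposited, on sequences of that assembly.

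Each gene took its highest score in the authors' deposited gene table. Genes were put in the first of 31 classes whose words their description matched, and up to 4 genes with the highest scores per class were named (up to 8 for epidermis, MYB and cuticle), with the genes of most peaks and highest scores. The members and lists were chosen with earlier results of these data known, and the class words were completed after descriptions and scores were seen, so the share of listed genes past the criterion is given for no class or smaller group. The class words were checked on a few known descriptions, and the counting of genes past the criterion was checked on simulated scores. Identifiers were matched to RefSeq genes of assembly ASM71507v2, for biotype only. Gene regions, motifs and sequences were not analysed here, and 2 unlabelled region sheets were not used here. Python 3.11.15, pandas 2.3.3 and scipy 1.17.1 were used.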

Additional observations from a re-analysis of the deposited data

Results flagged for a closer look

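The AmMIXTA list also held peaks outside the nuclear sequences used above. Of 8 peaks listed on the mitochondrial sequence NC_006581.1, 7 had a score above 2. The highest had 12.8, at 182017 to 182383, and the next had 4.17. These peaks enter no count above.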

How the results depend on the processing

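The counts depended mainly on the score criterion. With a score above 3 there were 10237 nuclear peaks, 616 genes and 435 genes in a class, and with a score above 5 there were 4032, 260 and 181, against 20512, 1195 and 818 at the authors' criterion. With any listed score, with overlapping peaks merged, with the mitochondrial peaks added, or without peaks tied to several genes, the counts stayed within 1.5 times of these. Counting a gene in every class it matched moved 3 class counts by more than 1.5 times: other transcription regulator (53 against 33), mitochondrial respiration (26 against 14) and primary metabolism (213 against 68). No paired analysis was possible because the lists hold no value per replicate, and for the same reason no replicate could be left out. Depth is unknown, so no counting error can be set beside a score.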

Other observations

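The listed peak centres were seldom in the middle of their regions. Among the 18636 nuclear peaks that lay inside a sequence, the end was exactly 174 bp after the centre in 3578 (19.2%), and the region was longer before the centre than after it in 82.4%.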
